A study of Mus musculus with 4 samples.

Results

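MHC class II genes encode the molecules that present peptides to CD4+ T cells, and cathepsin S is a lysosomal protease that prepares those molecules for peptide. The genes H2-Aa, H2-Ab1, H2-Eb1, H2-DMa and Ctss were looked up by symbol in the probe-to-gene table of the array, and every spot assigned to 1 of them alone was taken. All 5 genes were found, with 11 spots, of 10225 genes and 18511 spots assigned to 1 gene. H2-Aa had 3 spots, H2-Ab1 1 spot, H2-Eb1 4 spots, H2-DMa 2 spots and Ctss 1 spot.

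The samples were spinal cords of adult female SJL/J mice with AT-EAE and of adult female SJL/J control mice. The abbreviation stands for experimental autoimmune encephalomyelitis by adoptive transfer, in which myelin-reactive T cells given to a recipient cause inflammation of the cord. The sources used here do not give the transferred cells, the treatment of the control mice or the stage of disease. Each extract was total RNA from a pool of cords of 2 mice. On every 2-colour cDNA array both channels held an extract of 1 and the same group. AT-EAE array 1 carried extracts 1 and 2 and AT-EAE array 2 extracts 3 and 4, and the 2 control arrays were laid out in the same way. The value of a spot is therefore a log ratio between 2 extracts of 1 group, taken here as base 2 with the numerator channel unknown. It says nothing of how AT-EAE and control cord differ in level, and its sign has meaning only against other genes on the same array. In whole cord, fewer cells of a type and less RNA per cell cannot be told apart.

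MHC class II molecules are pairs of an alpha and a beta chain. H2-Aa and H2-Ab1 encode the alpha and beta chain of I-A, and H2-Eb1 encodes the beta chain of I-E. SJL/J mice carry the s haplotype of the H2 region, in which the I-E alpha chain gene H2-Ea is not transcribed, so that I-A is their class II molecule at the cell surface. In the endosome cathepsin S cuts the invariant chain that blocks the peptide groove, and H2-DM, whose alpha chain H2-DMa encodes, exchanges the remaining fragment for a peptide. In inflamed cord class II molecules are known from microglia and from macrophages, dendritic cells and B cells that enter it. Interferon gamma induces them through the coactivator CIITA, which sits on the factors RFX and NF-Y at the X and Y boxes of class II promoters.

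The 4 class II genes lie on chromosome 17 of GRCm38.p6, H2-DMa at 34119693 to 34139101, H2-Ab1 at 34263227 to 34269418, H2-Aa at 34282744 to 34287823 and H2-Eb1 at 34305867 to 34316674. Ctss lies on chromosome 3 at 95526786 to 95556405. The part of each gene that its spots cover was not analysed here. Promoter sequence from RefSeq (GRCm38.p6, of C57BL/6J, not SJL/J) was found for 4 of the 5 genes, all but H2-Ab1. The 150 bases before the annotated start of H2-Aa, H2-Eb1 and Ctss are shown for the motif letters that they hold. These are X and Y box letters in H2-Aa and H2-Eb1, and interferon response letters in Ctss. Induction of the genes through them was not tested. The stretches lie at chr17:34287824-34287973 on the minus strand, chr17:34305717-34305866 on the plus strand and chr3:95526636-95526785 on the plus strand. They are written 5′ to 3′ in the direction of the gene. Capitals mark the X box letters GCAAC and the Y box letters GATTGG in the class II genes, and, in Ctss, 2 copies of GAAA that stand 2 bases apart, the letters of an interferon response element, with the bases between them.
H2-Aa: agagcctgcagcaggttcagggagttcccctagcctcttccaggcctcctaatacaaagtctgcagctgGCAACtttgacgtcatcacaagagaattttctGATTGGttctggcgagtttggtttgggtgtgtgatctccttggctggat
H2-Eb1: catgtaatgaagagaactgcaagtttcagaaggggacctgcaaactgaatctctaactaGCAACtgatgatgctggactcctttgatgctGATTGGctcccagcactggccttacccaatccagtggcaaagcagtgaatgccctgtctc
Ctss: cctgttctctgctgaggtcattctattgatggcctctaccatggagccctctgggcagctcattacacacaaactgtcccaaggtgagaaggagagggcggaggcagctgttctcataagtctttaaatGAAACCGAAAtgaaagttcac

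The 250 bases before the start were searched for these letters on both strands. In H2-Aa the X box letters began at base -81 and the Y box letters at base -49, with 27 bases between them. In H2-Eb1 they began at -91 and -60, with 26 bases between them, and a further GATTGG lay on the other strand at -35 to -30. GCAAC followed by GATTGG on the same strand within 15 to 30 bases occurred in 0.262% of the 32851 promoter windows, GCAAC alone in 29.9% and GATTGG alone in 14.6%. Ctss held none of the X or Y box letters and 1 pair of GAAA copies 2 bases apart, at -21 to -12, a motif found in 2.98% of windows. The table has 2 windows for H2-DMa. One held GCAAC on the other strand at -7 to -3 and the other held GATTGG at -199 to -194, and neither held the pair. The letters were chosen with the sequences in view, and a match describes the sequence and not binding.

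**Figure D1:**
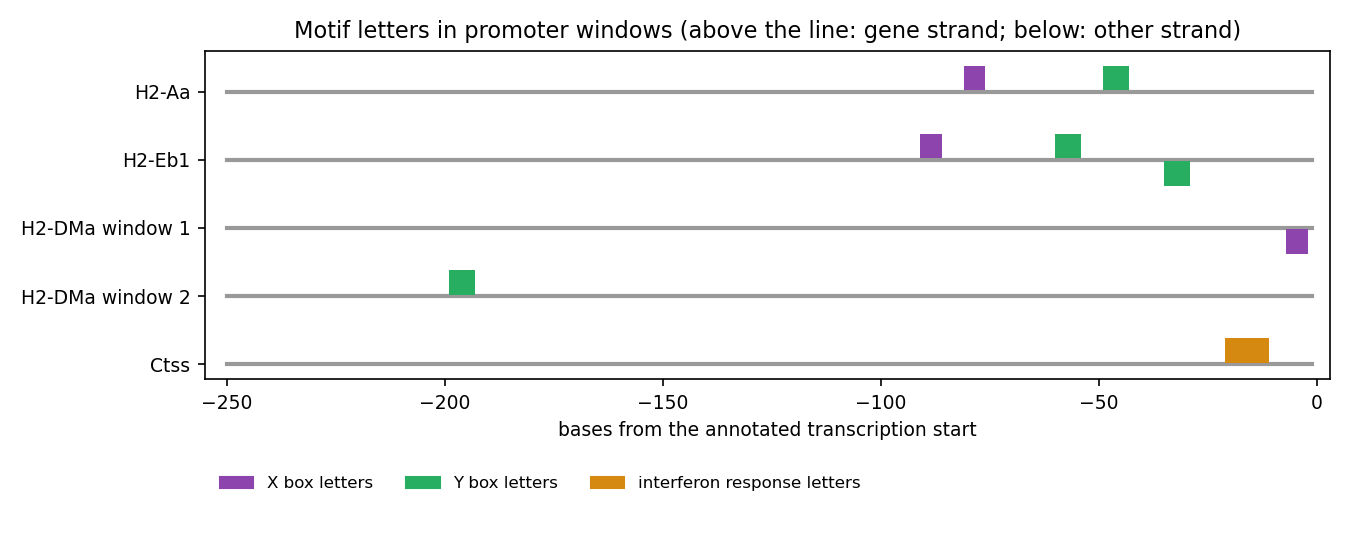
Motif letters in the 250 bases before the annotated start, for the promoter windows of H2-Aa, H2-Eb1, H2-DMa and Ctss. The x axis is the distance from the start in bases, and boxes above or below a line are matches on the gene strand or the other strand. The X and Y box letters stand 27 bases apart in H2-Aa and 26 in H2-Eb1.

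The first question was on which arrays these genes had a value. Every gene had a value on every array, in AT-EAE cord as in control cord. Over all genes, 72.4% and 54.9% had a value on AT-EAE arrays 1 and 2, and 86.2% and 80.1% on control arrays 1 and 2. Genes with a value on all 4 arrays made up 53.1% of all genes and were 5 of 5 here. The 5 genes were chosen with earlier results of these data known, so their presence is described and not tested. Spot by spot, all 11 spots had a value on both AT-EAE arrays, and 10 of the 11 on both control arrays. Of all spots assigned to 1 gene, 39.9% had a value on all 4 arrays, against these 10 of 11. As a check of the tissue, 12 markers of myelin, astrocytes and neurons were chosen later, and 7 of them had a spot of their own. All 7 had values on every array, except the glutamate transporter gene Slc1a2 on AT-EAE array 2.

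The exception was an H2-Eb1 spot, number 773 on the array, which had a value on both AT-EAE arrays and on neither control array. This pattern was rare, at 0.227% of all spots, or 42 of 18511. The opposite pattern, values on both control arrays and on neither AT-EAE array, was found for 12.8% of spots and for none of the 11. The other H2-Eb1 spots, 12745, 16636 and 28022, had values on all 4 arrays. The H2-Eb1 gene as a whole was thus measured in both groups, and the presence of a value on spot 773 differed between them. The filter that leaves a spot without a value is not given in the sources used here, so a missing value is not a measured absence of the transcript. No test is given, since presence on 2 arrays of each group cannot pass a threshold.

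Other genes of the class II pathway were measured less completely. Of 23 listed genes, 18 had a spot of their own and 8 had values on all 4 arrays. Values were present for 10 and 8 of the 18 genes on AT-EAE arrays 1 and 2, and for 13 and 10 on control arrays 1 and 2. The coactivator gene Ciita, the NF-Y subunit gene Nfya, the E beta-like gene H2-Eb2, and H2-Oa and H2-Ob, which encode the DM-inhibiting protein H2-O, had no value on any array. Over all genes 11.9% had none, against 5 of these 18. The RFX subunit genes had few values. Rfx5 had values on both control arrays and no AT-EAE array, Rfxap on control array 1 alone, and Rfxank on AT-EAE array 1 and control array 1. The gene of the invariant chain, H2-Ea, both H2-DMb genes and Ifi30 were not analysed here, as no spot was assigned to them alone.

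**Figure D2:**
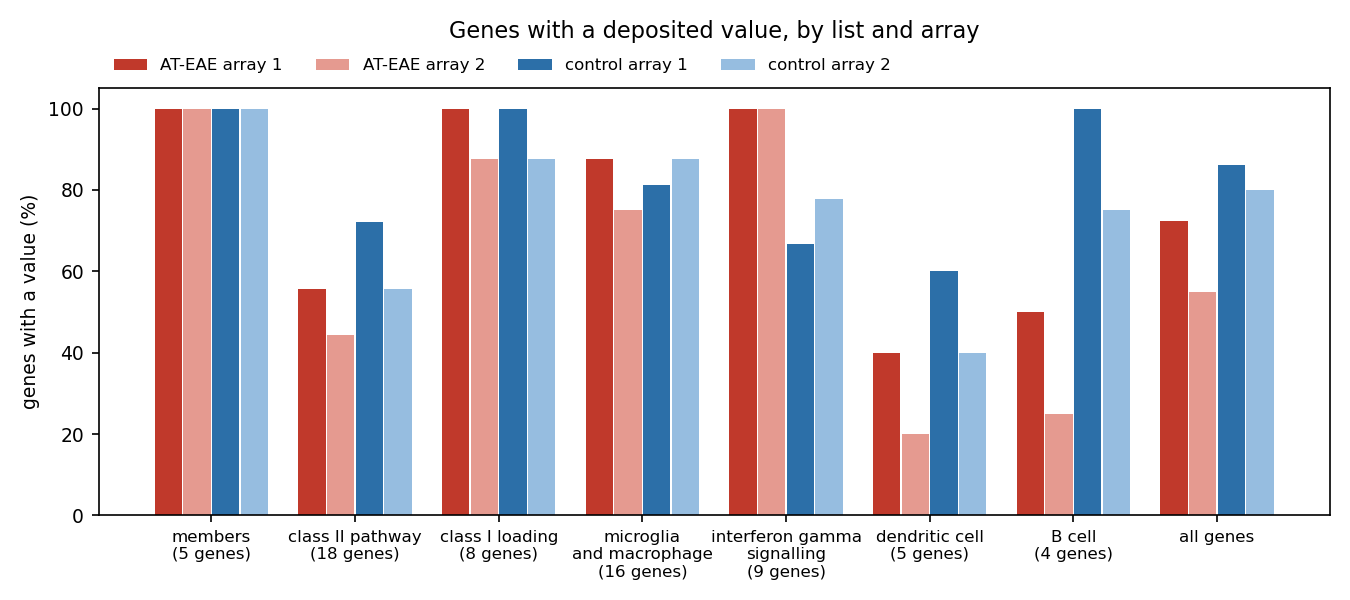
Share of genes with a deposited value, in percent, for the class II genes with cathepsin S (members), 6 other gene lists and all genes, by array, with the number of genes that had a spot of their own below each name. The members stand at 100% on all 4 arrays, while the share over all genes is 72.4% and 54.9% in AT-EAE and 86.2% and 80.1% in control. Members and lists were chosen with earlier results of these data known.

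Among cell type markers, 14 and 12 of 16 microglia and macrophage genes had values on AT-EAE arrays 1 and 2, and 13 and 14 on the control arrays. Of 5 dendritic cell genes 2 and 1 had values in AT-EAE, and 3 and 2 in control. The dendritic cell genes Cd209a and Ccr7, the pan-leukocyte gene Ptprc and the T cell gene Cd4 had no value on any array. Of 4 B cell genes 2 and 1 had values in AT-EAE, and 4 and 3 in control. The share over all genes was also lower in AT-EAE, at 72.4% and 54.9%, against 86.2% and 80.1% in control. A loss of values particular to a cell type was not tested. The B cell receptor chain genes Cd79a and Cd79b had none in AT-EAE, and Cd79a had one on control array 1 alone. Ms4a1 had values on all 4 arrays, and Jchain on AT-EAE array 1 and both control arrays. Of all spots, 12.8% had values on both control arrays and on no AT-EAE array. The costimulation genes Cd86 and Cd48 also had no value on any array, as had 11.9% of all genes.

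The second question was how far the genes differed between the 2 extracts of an array. In the following, a relative ratio is the deposited log2 ratio minus the median over all genes of that array, so that 0 is the typical gene. As a measure of error, the standard deviation between spots of 1 gene, pooled over all genes, was 0.24 and 0.36 on AT-EAE arrays 1 and 2, and 0.24 and 0.28 on control arrays 1 and 2. Differences smaller than these are within the spread of single spots. For Ctss and H2-Ab1, with 1 spot each, no error of their own can be given. The depth of a signal is not a count on arrays, and the number of arrays limits the precision.

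H2-Aa is the I-A alpha chain. On AT-EAE array 1 its spots 9040, 21938 and 21947 had relative ratios of -0.36, -0.32 and -0.38, and all lay beyond the pooled spot deviation. On AT-EAE array 2 the same spots were at -0.11, -0.01 and 0.66, so that 1 spot stood far above the others. On control array 1 they were at 0.27, 0.39 and 0.29, again all beyond the pooled spot deviation, and on control array 2 at 0.34, -0.04 and -0.19. The standard deviation between its 3 spots was 0.03 and 0.42 on AT-EAE arrays 1 and 2, and 0.07 and 0.27 on control arrays 1 and 2. All 3 spots thus lay on 1 side of the median, beyond the pooled spot deviation, on the first array of each group alone. Over all genes, pairs of spots of the same gene shared a side in 55.1% of cases on the first AT-EAE array. The share was 51.7% on the first control array. How many other genes had spots that all agreed in this way was not counted, so an H2-Aa difference between extracts was not tested. Extracts 1 and 2 of AT-EAE were other pools than extracts 1 and 2 of control.

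H2-Ab1, the I-A beta chain, was carried by spot 24904. Its relative ratio was -0.23 and -0.16 in the AT-EAE pair of arrays, and -0.24 and 0.13 in the control pair, in the order of their numbers. Only the value on control array 1 exceeded the pooled spot deviation of its array. On that array the beta chain lay below the array median and the alpha chain above it, 0.56 apart.

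H2-Eb1, the I-E beta chain, had spots that did not agree. On AT-EAE array 1 spots 773 and 12745 were at -0.75 and -0.47, while spots 16636 and 28022 were at 0.04 and -0.04. On AT-EAE array 2 the same 4 spots were at -0.38, -0.04, 0.06 and -0.54, so that a different pair was low. On control array 1 spots 12745, 16636 and 28022 were at 0.35, -0.07 and -0.06, and on control array 2 at 0.17, -0.16 and -0.21. The standard deviation between the H2-Eb1 spots was 0.37 and 0.28 on AT-EAE arrays 1 and 2, and 0.24 and 0.21 on control arrays 1 and 2. Beta chain genes of class II resemble each other in sequence, and how far a spot of 1 also bound the transcript of another was not tested.

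H2-DMa, the peptide exchange factor, was higher than the array median on both of its spots on 3 arrays. Spots 11501 and 17233 were at 0.02 and 0.01 on AT-EAE array 1. The same spots reached 0.27 and 0.50 on AT-EAE array 2. On control array 1 they were at 0.24 and 0.13, and on control array 2 at 0.21 and -0.18. On AT-EAE array 1 this gene was thus at the array median while the 3 chain genes lay below it. Its spot mean passed the pooled spot deviation on AT-EAE array 2 alone.

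Ctss, the invariant chain protease, was carried by spot 25502. Its relative ratio was -0.28 and 0.09 on the first and second AT-EAE array, and 0.18 and 0.01 on the first and second control array. The value on AT-EAE array 1 was the 1 that exceeded the pooled spot deviation. On each array Ctss lay on the same side of the median as the spot mean of H2-Aa and closer to 0. With the median over its spots, H2-Aa was at -0.01 on AT-EAE array 2 and -0.04 on control array 2. On those arrays it then lay on the other side from Ctss.

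**Figure D3:**
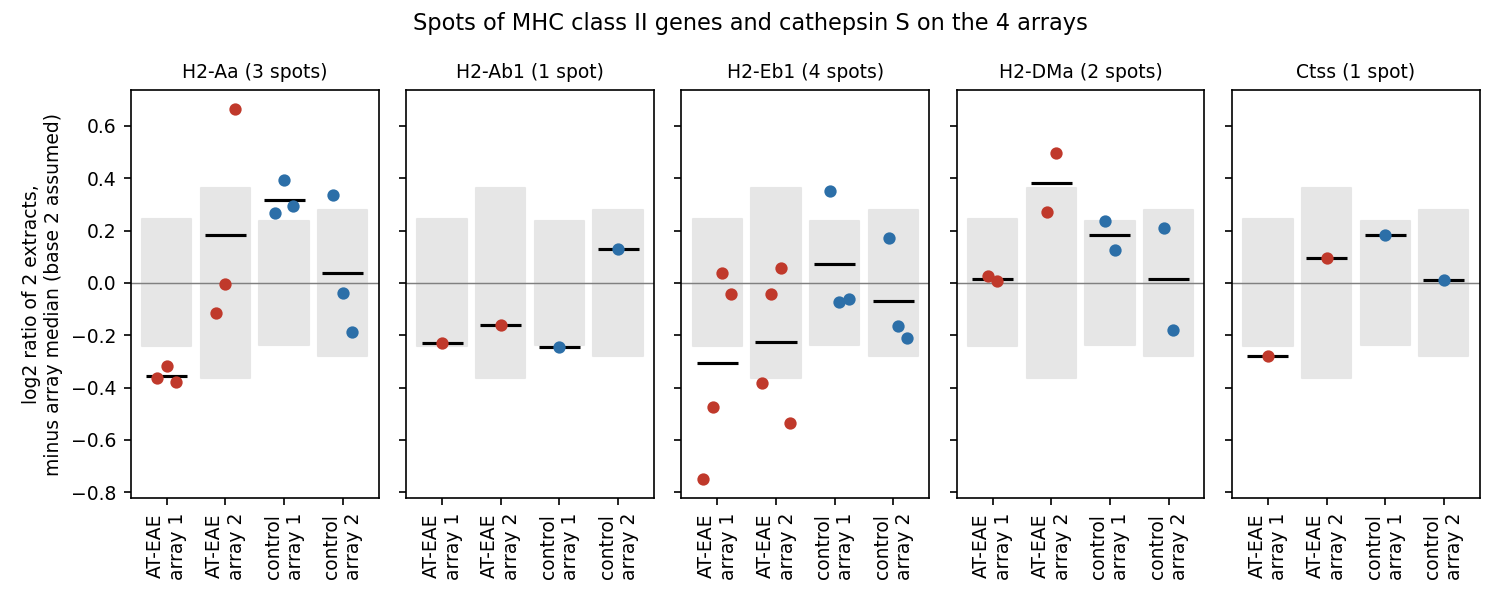
Relative log2 ratio between the 2 extracts of an array (y axis, base 2 assumed) for each spot of the 5 genes on the 4 arrays, AT-EAE in red and control in blue, with the gene's mean as a black bar. Grey boxes span the pooled standard deviation between spots of a gene on that array. The 3 H2-Aa spots cluster on AT-EAE array 1 and control array 1 and spread on the other arrays.

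Counted over the 5 genes, 3 lay below the median of AT-EAE array 1 by more than the pooled spot deviation, H2-Aa, H2-Eb1 and Ctss, against 12.5% of all genes there, and none lay above by that much, against 7.26%. By single spots 6 of 11 were low to that extent, against 15.6% of all spots, and none was high, against 8.83%. On AT-EAE array 2, 1 gene lay above by that much, H2-DMa, against 14.6% of all genes, and none below, against 13.2%. Of the 11 spots 2 were low, against 14% of all spots, and 2 high, against 18.2%. On control array 1 the count was 1 gene above, H2-Aa, against 8.65%, and 1 below, H2-Ab1, against 11.8%. There 4 of 10 spots were high, against 12%, and 1 was low, against 14.3%. On control array 2 no gene lay beyond the deviation in either direction, against 9.83% of all genes above and 14.1% below. Of the 10 spots with a value there 1 was high, against 11.6%, and none low, against 17.8%. Counted by the side of the median alone, 8 of 11 spots lay below it on AT-EAE array 1, against 49.8% of all spots, and 6 of 11 on AT-EAE array 2, against 47.9%. On control arrays 1 and 2, 3 of 10 and 5 of 10 did, against 48.2% and 50.6%.

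The third question was whether the class II genes moved together between extracts. On AT-EAE array 1 the 3 genes of the presenting chains lay on the same side of the median, with gene ratios of -0.35 for H2-Aa, -0.23 for H2-Ab1 and -0.31 for H2-Eb1, and H2-DMa was at 0.02. H2-Ab1 was within the pooled spot deviation there, and the H2-Eb1 mean came from 2 of its 4 spots and was -0.16 without spot 773, also within that deviation. On AT-EAE array 2 and on both control arrays the side of 1 gene depended on the summary of its spots. By spot means on AT-EAE array 2, H2-Aa at 0.18 and H2-DMa at 0.38 lay above the median. H2-Ab1 at -0.16 and H2-Eb1 at -0.23 lay below it. With the median over spots in place of the mean, H2-Aa was at -0.01, so that all 3 chain genes lay below, H2-Aa at almost 0. On control array 1 H2-Aa at 0.32, H2-DMa at 0.18 and H2-Eb1 at 0.07 lay above and H2-Ab1 at -0.24 below. With the median over spots H2-Eb1 was at -0.06 there. On control array 2 the values were small, with H2-Ab1 at 0.13, H2-Aa at 0.04, H2-DMa at 0.01 and H2-Eb1 at -0.07. With the median over spots H2-Aa was at -0.04 there. The distance between the highest and the lowest class II gene was 0.37 and 0.61 on AT-EAE arrays 1 and 2, and 0.56 and 0.20 on control arrays 1 and 2.

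As pairs, by spot means, 11 of 24 combinations of 2 class II genes and an array lay on the same side of the array median. These were 3 of 6 on AT-EAE array 1, 2 of 6 on AT-EAE array 2 and 3 of 6 on each control array. Over all pairs of genes the share was 50% on each array. Even pairs of spots of the same gene, from different clones, were on the same side in only 55.1% and 56.8% of cases on AT-EAE arrays 1 and 2, and in 51.7% and 57.4% on control arrays 1 and 2. For same-gene spots of the class II genes the count was 19 of 34 over the 4 arrays. The pairs H2-Ab1 with H2-DMa and H2-Eb1 with H2-DMa were on the same side on 1 array of 4, and H2-Aa with H2-DMa on 3, and each of the other pairs on 2. With 4 arrays no correlation between genes is given.

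The median over the 5 genes was -0.28 and 0.09 on AT-EAE arrays 1 and 2, and 0.18 and 0.01 on control arrays 1 and 2, against 0 for all genes by construction. If the base is 2, the pooled spot deviation corresponds to a 1.18-fold difference on AT-EAE array 1 and a 1.28-fold difference on AT-EAE array 2. As a rule of likeness, the mean profile of the 4 class II genes over the 4 arrays was compared with 3552 other genes that had at least 2 spots and values on every array. The nearest were the autophagy gene Atg9a, the nuclear import gene Kpna6, the galactosyltransferase gene B4galt3, the splicing factor gene Rbm17 and the mTOR regulator gene Tsc1, at Euclidean distances of 0.05 to 0.10. Ctss was at 0.13, H2-Eb1 at 0.30, H2-Aa at 0.31, H2-Ab1 at 0.40 and H2-DMa at 0.42, but the 5 genes were selected for their nearness, so these distances are not comparable with theirs.

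Of the pathway genes that handle antigen in the lysosome, Ctsd and Ctsb lay below the median of AT-EAE array 1 by more than the pooled spot deviation. Over all genes 12.5% did so there. All 5 measured protease genes were below the median there, Ctsd at -0.71, Ctsb at -0.29, Ctsl at -0.21, Lgmn, which encodes asparaginyl endopeptidase, at -0.19 and Ctsz at -0.10. The other 3 genes were within the deviation, and the proteases were grouped after their values were seen. On AT-EAE array 2, 3 of the 5 lay above, Ctsb at 0.38, Lgmn at 0.25 and Ctsl at 0.22, with Ctsd at -0.36 and Ctsz at -0.04. On control array 1, 3 of 6 lay below, and on control array 2, 2 of 5. Ctsd was at 0.18 and 0.12 on control arrays 1 and 2, and Ctsl at 0.05 and 0.12. On the same arrays Ctsb was at -0.04 and -0.24, Lgmn at -0.03 and -0.32 and Ctsz at -0.18 and 0.05. The Ctsb spots on control array 2 were at 0.21, 0.05 and -0.97, so that 1 spot set its side. On AT-EAE array 2 the Ctsb value came from 1 of its 4 spots and the Lgmn value from 1 of 2. The cathepsin inhibitor gene Cst3 was at -0.14 and 0.17 on AT-EAE arrays 1 and 2, and at 0.16 and 0.33 on control arrays 1 and 2. The ubiquitin ligase gene Marchf1, whose product removes class II from the surface, was at 0.21 and -0.27 in AT-EAE, and at -0.03 and 0.21 in control. The NF-Y subunit gene Nfyc was at 0.13 and -0.000575 in AT-EAE, and at 0.01 and 0.14 in control. Over the whole pathway list 7 of 10 genes lay below the median on AT-EAE array 1 and 4 of 8 on AT-EAE array 2, and 7 of 13 and 4 of 10 on control arrays 1 and 2. The list medians were -0.12 and 0.08 in AT-EAE, and -0.02 and 0.08 in control.

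**Figure D4:**
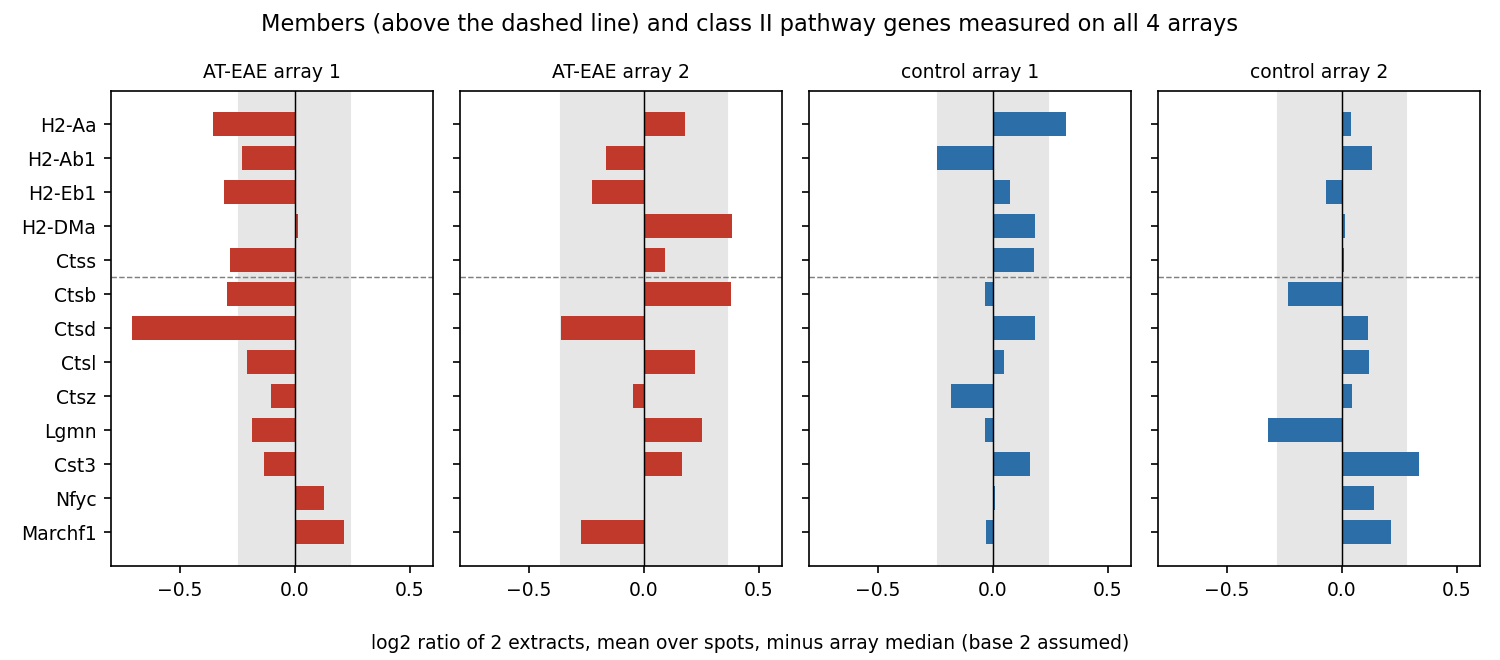
Relative log2 ratio (x axis, base 2 assumed, mean over spots) of the 5 genes above the dashed line and of 8 class II pathway genes with values on every array, with AT-EAE arrays in red and control arrays in blue. Grey bands span the pooled standard deviation between spots of a gene. On AT-EAE array 1 H2-DMa, Nfyc and Marchf1 are the 3 genes not below 0.

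Microglia and macrophage markers lay on the same side as the chain genes on AT-EAE array 1, where 12 of 14 were below the median, at a list median of -0.15. Lyz2 was at -1.02, Cd68 at -0.77 and Fcgr3 at -0.56, and Fcgr1 was at 0.47. Fcgr1 was also at 0.67 on AT-EAE array 2, and at 0.53 and 0.46 on control arrays 1 and 2. Its high ratio was thus not particular to AT-EAE array 1. Lyz2, Cd68 and Fcgr1 had 1 spot each. Lyz2 and Cd68 had no value on AT-EAE array 2, and Cd68 had none on control array 1. The list medians were -0.15 and -0.01 on AT-EAE arrays 1 and 2, and -0.03 and 0.08 on control arrays 1 and 2. Dendritic cell markers were at a median of -0.22 on AT-EAE array 1 from 2 genes, Itgax at -0.17 and Irf8 at -0.26, and the 2 B cell genes with a value there, Ms4a1 and Jchain, were at 0.06 and 0.03. The part of these cells in the low class II values was not tested. Of the class I loading genes, 6 of 8 lay above the median on AT-EAE array 1, at a list median of 0.08, with Calr the lowest at -0.53, and on AT-EAE array 2 all 7 with a value lay above, at 0.27. On control arrays 1 and 2 that list was at 0.15 and -0.05. The difference between class I and class II genes was not tested. Interferon gamma signalling genes were at -0.02 and 0.36 on AT-EAE arrays 1 and 2, and at 0.14 and -0.24 on control arrays 1 and 2. These medians came from 9 genes on each AT-EAE array, and from 6 and 7 on control arrays 1 and 2. Irgm1 and Iigp1, with 1 and 3 spots, had values on both AT-EAE arrays and no control array. By single spots this pattern was found for 0.227% of all spots, and its share over genes was not counted. On AT-EAE array 1 Iigp1 was at 0.01 and Gbp3 at -0.17, and on AT-EAE array 2 they were at 0.74 and 0.52. Jak2 at -0.15 and Ifngr1 at -0.07 were the 2 genes of 9 below the median there. Large ratios also stood on control arrays, Gbp2 at 0.76 on control array 1 and Gbp3 at -1.05 on control array 2.

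The fourth question was whether AT-EAE extracts differed from each other more than control extracts did. By spot means, the absolute relative ratio of H2-Eb1 was 0.31 and 0.23 on AT-EAE arrays 1 and 2. It was 0.07 and 0.07 on control arrays 1 and 2, so that the groups did not overlap. Its mean was 0.27 ± 0.06 in AT-EAE and 0.0704 ± 0.00313 in control (SD, n = 2 arrays each), a difference of 0.20 (2-sided exact permutation p = 0.333, the smallest that 4 arrays allow). Without spot 773, which only the AT-EAE arrays measured, the difference was 0.10. The control spots lay on both sides of the median and partly cancelled in the mean. They were at 0.35, -0.07 and -0.06 on control array 1, and at 0.17, -0.16 and -0.21 on control array 2. No H2-Eb1 spot with values on all 4 arrays showed the gap between groups by itself, and spot 16636 was larger on both control arrays. Of all 5429 genes with values on all 4 arrays, 19.4% had larger absolute ratios on both AT-EAE arrays than on both control arrays. For the other 4 genes the groups overlapped, with means of 0.27 in AT-EAE and 0.18 in control for H2-Aa, 0.20 and 0.19 for H2-Ab1, 0.20 and 0.10 for H2-DMa, and 0.19 and 0.10 for Ctss (exact permutation p between 0.667 and 1). The mean was larger in AT-EAE for all 5 genes, as for 60.6% of all genes. The median over all genes was 0.18 in AT-EAE and 0.14 in control. No difference in size between the groups was therefore shown at 2 arrays each.

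A ratio shared by all 4 arrays would belong to a spot's channels and not to the extracts. In limma on the 10133 spots with values on all arrays, 4 spots were called at an adjusted p under 0.05, or 0.0395%. None of the 10 spots of these genes that could be tested was among them, and none had an unadjusted p under 0.05. Without AT-EAE array 1, 2 of the 10 had one, and the lowest adjusted p was 0.0899. With all arrays the lowest adjusted p of them was 0.466 with Benjamini-Hochberg adjustment, for H2-Eb1 spot 28022, whose deposited ratio averaged -0.23 ± 0.12 (SE) and was negative on 4 of 4 arrays. H2-DMa spot 11501 was likewise of 1 sign, positive on 4 of 4 arrays, at a mean of 0.17 (limma adjusted p = 0.524). The share of all spots with 1 sign on all arrays was not counted. H2-DMa spot 17233 averaged 0.10 and the H2-Ab1 spot -0.14. For H2-Aa spots the mean was between -0.01 and 0.08, and for Ctss it was -0.02.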

How the data were processed

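Spinal cord RNA was measured on 4 two-colour cDNA arrays, 2 per group. The deposited value of a spot was read as a log2 ratio between its 2 channels after the authors' normalization. Per the labels' descriptions the authors normalized the green and red signals. The sources used here do not give the log base, numerator channel, background correction, spot filter or software. Values were signed and centred near 0, so they were read as log ratios. This does not settle the base, and base 2 is an assumption.

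Of 28704 spots, 18511 had 1 gene, 937 several and 9256 none. Symbols came from the platform table, updated to GRCm38.p6 by gene identifier for 18267 spots. Each gene's ratio was its spot mean, and array medians over genes were subtracted. Same-gene spot pairs left out repeats of a clone. Channel effects were tested with limma 3.58.1 (R 4.3.3) across all spots, and absolute ratios by exact permutation over 6 splits. On simulated data limma was tested before use. Python 3.11.15, numpy 2.4.6, pandas 2.3.3 and matplotlib 3.10.9 were used.

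All 5 genes and their spots were reported. Pathway genes were named where values existed on all 4 arrays, and the absence of values was stated for others. Of other lists up to 4 genes were named with their ratios per array. Members and lists were chosen with earlier results of these data known. Lysosomal proteases were split from the pathway list after values were seen. Alternatives changed the spot summary, centring, genes, filter and arrays used.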

Additional observations from a re-analysis of the deposited data

How the results depend on the processing

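The median over the 5 genes moved by less than the pooled spot deviation under all 36 alternatives run over the 4 arrays. It ranged from -0.31 to -0.23 on AT-EAE array 1 and from -0.03 to 0.09 on AT-EAE array 2, and from 0.13 to 0.29 on control array 1 and from -0.01 to 0.12 on control array 2, so that its sign held on AT-EAE array 1 and control array 1 alone. Of the 4 class II genes 3 lay below the median of AT-EAE array 1 under each of the 3 alternatives. With the median over spots of a gene, 3 in place of 2 lay below on AT-EAE array 2, 2 in place of 1 on control array 1, and likewise 2 in place of 1 on control array 2. If a gene needed at least 2 spots with a value, 3 of the 5 genes had values on each array, since H2-Ab1 and Ctss have 1 spot each.

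The AT-EAE minus control difference in absolute ratio, leaving out 1 array at a time, ranged from 0.16 to 0.24 for H2-Eb1, -0.0508 to 0.23 for H2-Aa, -0.0480 to 0.0665 for H2-Ab1, -0.0827 to 0.28 for H2-DMa and -0.00101 to 0.18 for Ctss. It changed sign without control array 2 for H2-Aa (-0.0508) and H2-Ab1 (-0.0480), without AT-EAE array 1 for H2-Ab1 (-0.0242) and Ctss (-0.00101), and without AT-EAE array 2 for H2-DMa (-0.0827). With 1 array left in a group these are values with no test.

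No member spot was called by limma in any of 7 alternatives, with 0 called in each fit that left out an array. Their lowest adjusted p was 0.466 with all arrays and 0.0899 without AT-EAE array 1, where 2 of 10 had an unadjusted p under 0.05, and 0.511 to 0.808 in the other alternatives except centring (0.466). Over all spots 4 were called, against 17 with spots on at least 1 array of each group, 3 after centring, and 41 to 749 leaving out 1 array. With the array number as a replicate block, 0 member spots and 49 of all spots were called, and the numbers are only names of extracts and pair no samples. The removal of spot 773 was chosen after seeing the data. Signal over background was not analysed here.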
